A study of Mus musculus with 12 samples.

Results

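The genes described here are 10 mRNAs of the translation machinery and its close partners in mouse embryonic fibroblasts (MEFs): the elongation factor genes Eef1a1, Eef1b2, Eef1d, Eef1g and Eef2, the initiation factor subunits Eif3e, Eif3f and Eif3h, and the genes Pabpc1 and Tpt1. They are listed by name as reported TOP mRNAs, by a rule that uses no measured value. The members and the comparisons were nevertheless chosen with earlier results of these data known. All 10 were among the 25117 gene symbols of the deposited table and among the 12653 symbols with enough signal to be tested. All 12 libraries came from cells with the genotype Rbbp5 (flox/flox); Rosa26 CRE (+/+), which were grown in full DMEM with 10% FBS. Cells given tamoxifen for 7 days carried the label RBBP5 KO, and cells without it carried the label wildtype. For the last 16 hours each kind stood in EBSS, a balanced salt solution that holds glucose but no amino acids or serum, or in full medium. The 4 groups are KO in EBSS, wildtype in EBSS, KO in full medium and wildtype in full medium, with 3 libraries each. The wildtype cells were not given tamoxifen, so deletion of Rbbp5 and exposure to tamoxifen cannot be told apart in any comparison by genotype label. The labels do not say whether the libraries of a group came from separate cultures, so p-values measure only the spread between these libraries. Neither the promoter that drives the Cre nor the number of MEF lines is stated in the labels.

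TOP mRNAs begin with a C that is followed by an unbroken stretch of pyrimidines, the terminal oligopyrimidine motif. The motif is best known from mRNAs of ribosomal proteins and elongation factors. Through it the kinase mTORC1 and the RNA-binding protein LARP1 control their translation and stability according to amino acid supply. The eEF1 complex brings aminoacyl-tRNA to the ribosome, eEF2 moves the ribosome along the mRNA, eIF3 recruits the mRNA to the small ribosomal subunit, PABPC1 coats the poly(A) tail, and TPT1 (TCTP) is an abundant cytosolic protein that binds eEF1 factors.

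A search of annotated transcripts showed how the pyrimidine stretch sits in these mRNAs. Transcripts of GENCODE vM21 on GRCm38 were searched in their first 100 bases for a C followed by at least 4 further pyrimidines, and the coding transcript in which that run began earliest was kept. For 8 of the members the 30-base window that holds the run is printed 5′ to 3′ on the strand of the mRNA, so that the place and length of the run can be seen. Capitals mark the run, and windows with a run beyond base 1 begin before it.
Eef1d: CTCTCCTTTgcagtcctgagctcgcagttc
Eif3f: CTCTTTCTCggcaagatggcttctccggcc
Pabpc1: CCCCTTCTCCCCggcggttagtgctgagag
Eif3e: aacaagcgCTCCTTTCCCCCggcaagatgg
Eif3h: tagttccgCTTCCggcgcctcacgcttctc
Tpt1: cgcgtcggCCTTTTCCgcccgctcccccct
Eef1g: tgcgtatgCCTTTTatgccgtcctcgcttt
Eef1a1: tggacgttCTTTTTCgcaacgggtttgccg
The first 3 windows start at base 1 of the annotated transcript, at chr15:75909277-75909306 on the minus strand for Eef1d, chr7:108934417-108934446 on the plus strand for Eif3f and chr15:36608944-36608973 on the minus strand for Pabpc1. The run began at base 10 in Eif3e (chr15:43282689-43282718, minus) and at base 22 in Eif3h (chr15:51865481-51865510, minus). It began at base 29 in Tpt1 (chr14:75845322-75845351, plus), at base 44 in Eef1g (chr19:8967076-8967105, plus) and at base 54 in Eef1a1 (chr9:78481650-78481679, minus). All 8 windows lie within exon 1 of their transcript.

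A run that starts exactly at the annotated first base was present in 4 of 10 members (40%), in 20 of 77 cytosolic ribosomal protein genes (26.0%) and in 529 of 11860 tested coding genes (4.46%). A start within the first 10 bases was found in 5 of 10 members (50%), in 55.8% of the ribosomal protein genes and in 29.6% of the tested coding genes. A run anywhere in the first 100 bases, the criterion behind the printed windows, was found in 10 of 10 members, in 98.7% of the ribosomal protein genes and in 84.2% of the tested coding genes, so it does not set the members apart. Annotated starts need not be the starts used in these fibroblasts, which were not measured here, and a gene with more annotated transcripts has more chances of an early run.

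Rbbp5, the targeted gene, has to be read before any genotype comparison. Its TPM was 31.9, 24.6 and 23.0 where the label was KO in EBSS, against 12.4, 14.0 and 11.8 TPM in the libraries labelled wildtype in EBSS. In full medium it had 7.47, 9.34 and 8.31 TPM in KO libraries, against 26.2, 25.7 and 26.2 TPM in wildtype libraries. On scaled values, defined below, the libraries labelled wildtype in EBSS had 21.0, 22.3 and 18.6, close to the 20.8 to 21.1 of wildtype in full medium. Rbbp5 was thus low in KO cells in full medium, and the libraries labelled KO in EBSS held it at the level of wildtype cells. Genotype in EBSS is given below as a label only, and each direction drawn from it rests on labels that Rbbp5 goes against as deposited. On scaled values Rbbp5 did not go against the wildtype label in EBSS.

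The libraries labelled wildtype in EBSS also stood apart in composition. TPM is a share of all transcripts, corrected for length, and keeps no read depth. Cytosolic ribosomal protein mRNAs took 31.5% to 34.0% of TPM in those 3 libraries, against 14.6% to 18.3% in the other 9. The median tested gene had 10.1 to 10.5 TPM there, against 17.5 to 23.0 TPM elsewhere. The rRNA precursor Rn45s had 1454 to 2105 TPM there and 68.3 to 272 TPM elsewhere, and the RNase P RNA Rpph1 had 809 to 1302 TPM there and 2.01 to 10.9 TPM elsewhere. Their part in the results was not tested. Because of this shift each change is given on a pair of scales: TPM as deposited, and TPM divided by a median-of-ratios factor that puts the typical gene at the same level in every library ("scaled"). The factors were 0.593 to 0.636 for labelled wildtype in EBSS and 1.03 to 1.26 for the other libraries. As deposited, the median tested gene stood at a log2 change of -0.94 for labelled wildtype in EBSS over wildtype in full medium. On the scaled values it stood at -0.09. In bulk RNA, fewer cells of one type and less RNA per cell cannot be told apart.

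Fibroblast identity was checked on 12 markers. All 12 reached 1 TPM in some library of each group except KO in full medium, where 10 of 12 did, and their summed level was 6093 to 9282 TPM in labelled KO in EBSS, 4847 to 5744 TPM in labelled wildtype in EBSS, 6580 to 7247 TPM in KO in full medium and 9209 to 9476 TPM in wildtype in full medium. Among them Col3a1, a collagen gene named after its values were seen, averaged 561 TPM in labelled KO in EBSS, 23.3 TPM in labelled wildtype in EBSS, 41.1 TPM in KO in full medium and 606 TPM in wildtype in full medium. Col3a1 does not stand for all 12: Vim, another of them, had a log2 change of 0.12 in KO over wildtype in full medium as deposited. The other markers are not given singly. Markers of macrophages and blood summed to at most 63.7 TPM, of epithelium to at most 11.1 TPM, of endothelium to at most 7.25 TPM, of neural cells to at most 45.3 TPM and of skeletal muscle to at most 0.635 TPM in any library.

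Together the 10 mRNAs were a few percent of the transcript pool. They made up 2.21% to 2.28% of TPM in the libraries labelled KO in EBSS, 2.92% to 3.14% in those labelled wildtype in EBSS, 1.67% to 1.77% in KO in full medium and 2.39% to 2.42% in wildtype in full medium. The 4 ranges do not overlap, and KO cells in full medium held the smallest share. Eef1a1 alone was 46.4% to 47.9%, 40.5% to 42.9%, 37.4% to 39.5% and 48.9% to 49.6% of the members' TPM in those 4 groups, in that order.

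The order of the members by level was alike at its top in every group but one. Eef1a1 was highest throughout, followed by Tpt1 and then Eef2 in 3 groups; among libraries labelled wildtype in EBSS, Eef2 averaged 5859 TPM and Tpt1 4974 TPM, with overlapping values. Pabpc1, Eif3h and Eef1g held the middle in every group, joined by Eef1b2 in labelled wildtype in EBSS. Eif3f was the lowest member in 3 groups and Eif3e in labelled wildtype in EBSS. Neighbours in the order whose libraries overlapped were Eef1d with Eef1b2 and Eef1b2 with Eif3e in both KO-labelled groups, Eif3h with Eef1g in KO in full medium, Eef1d with Eif3e in wildtype in full medium, and Eef2 with Tpt1, Eif3h with Pabpc1 and Pabpc1 with Eef1b2 in labelled wildtype in EBSS. The coefficient of variation between the 3 libraries of a group had a median over members of 3.91% in labelled KO in EBSS, 6.34% in labelled wildtype in EBSS, 4.69% in KO in full medium and 1.67% in wildtype in full medium.

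**Figure D1:**
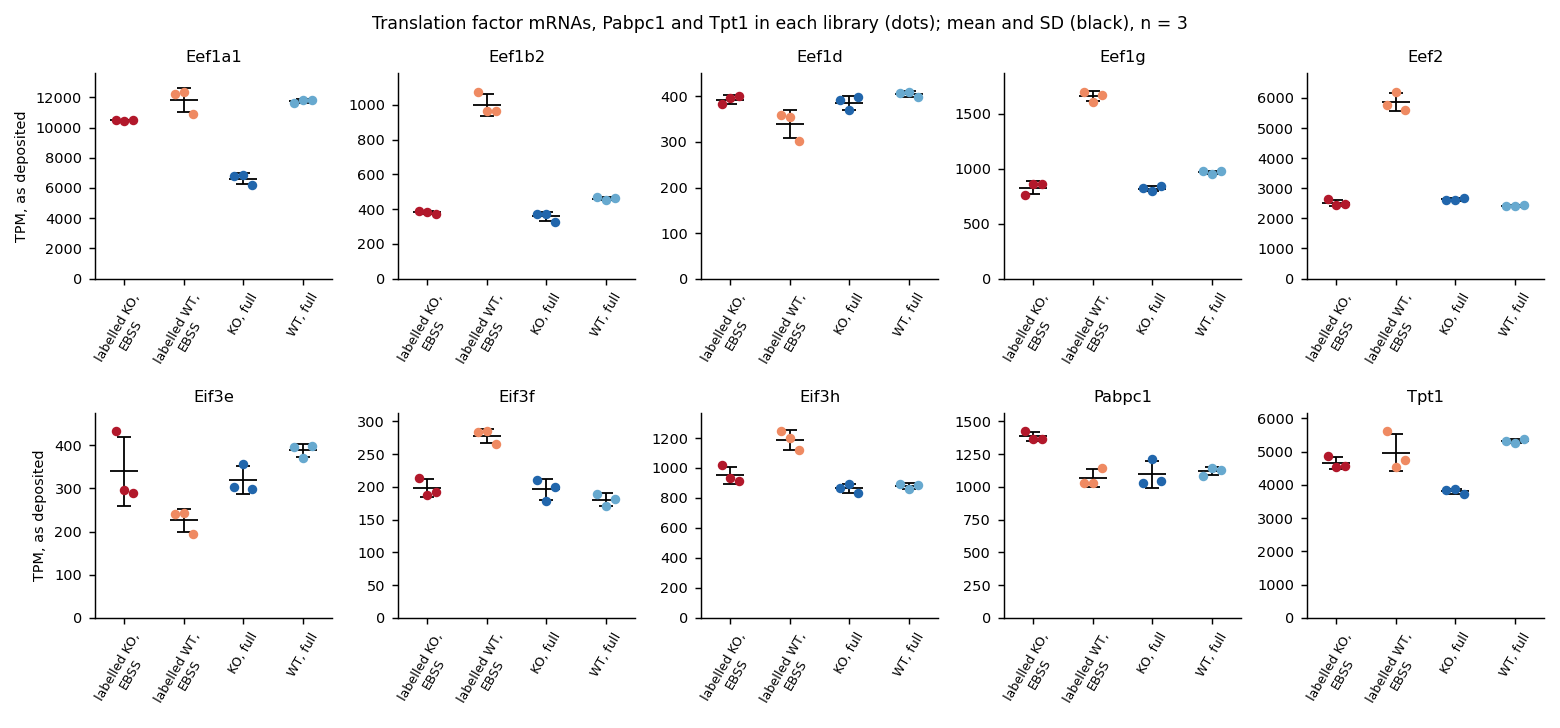
TPM as deposited (y axis, from 0) of each of the 10 mRNAs in each library (dots), with the mean and SD of the 3 libraries of a group (black); the groups run from labelled KO in EBSS to wildtype in full medium. Eef1a1 is at 6197 to 6841 TPM in KO in full medium and at 10450.2 TPM or more in all other libraries, whereas Eef2, Eef1b2 and Eef1g stand out in labelled wildtype in EBSS.

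Eef1a1 (ENSMUSG00000037742.14, chr9:78478449-78489151) encodes eEF1A1, the GTPase that delivers aminoacyl-tRNA. Its TPM was 10482, 10450.2 and 10491 with the label KO in EBSS, against 12229, 12364 and 10915 TPM in those labelled wildtype in EBSS. Full-medium values were 6813, 6841 and 6197 TPM in KO libraries, against 11612, 11824 and 11831 TPM in wildtype libraries. The KO libraries in full medium were low and did not overlap any other group. The other isoform gene, Eef1a2, known from neurons and muscle, did not exceed 0.758 TPM in any library and was not tested.

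The exchange factor subunits Eef1b2, Eef1d and Eef1g recharge eEF1A with GTP as one complex, yet their mRNAs did not keep a fixed ratio. Eef1b2 (ENSMUSG00000025967.16, chr1:63176825-63180486), a catalytic subunit, had 389, 384 and 373 TPM in labelled KO in EBSS, against 1074, 964 and 963 TPM in labelled wildtype in EBSS. In full medium its values were 373, 374 and 327 TPM in KO libraries, against 468, 452 and 461 TPM in wildtype libraries. Eef1b2 was thus highest in labelled wildtype in EBSS, and both KO-labelled groups lay below wildtype in full medium with no overlap. Eef1d (ENSMUSG00000055762.16, chr15:75894205-75909556), the other catalytic subunit, had 382, 397 and 400.5 TPM in labelled KO in EBSS, against 358, 354 and 303 TPM in labelled wildtype in EBSS. Its full-medium values were 391, 369 and 398 TPM in KO libraries, against 407, 409.9 and 398 TPM in wildtype libraries. As deposited, Eef1d was the flattest of the 3 and lowest where Eef1b2 was highest. Its scaled TPM averaged 325 in labelled KO in EBSS, 549 in labelled wildtype in EBSS, 353 in KO in full medium and 325 in wildtype in full medium, and was thus highest where Eef1b2 was highest.

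Eef1g (ENSMUSG00000071644.10, chr19:8967041-8978479), the scaffold subunit, had 764, 860.2 and 862 TPM in labelled KO in EBSS, against 1699, 1611 and 1674 TPM in labelled wildtype in EBSS. With full medium it had 823, 797 and 839 TPM in KO libraries, against 975, 953 and 975 TPM in wildtype libraries. Like Eef1b2, it was high in labelled wildtype in EBSS and overlapped no other group there. The ratio of Eef1b2 to Eef1d within a library, which no scaling of whole libraries can alter, averaged 0.972 ± 0.043 in labelled KO in EBSS, 2.97 ± 0.231 in labelled wildtype in EBSS, 0.930 ± 0.0971 in KO in full medium and 1.14 ± 0.0303 in wildtype in full medium (SD, n = 3 each). The ratio of Eef1g to Eef1d averaged 2.11, 4.94, 2.12 and 2.39 in the same groups. For both ratios the group labelled wildtype in EBSS overlapped none of the others. Ratios are given as values without a test; an exact permutation test of 3 libraries against 3 could not give a two-sided p below 0.1.

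Eef2 (ENSMUSG00000034994.10, chr10:81176631-81182498) encodes the translocase eEF2. It had 2627, 2452 and 2466 TPM in the libraries labelled KO in EBSS, against 5765, 6199.6 and 5611 TPM in those labelled wildtype in EBSS. KO libraries in full medium had 2600.3, 2625 and 2689 TPM, against 2401, 2401 and 2430.4 TPM in wildtype libraries. Eef2 was high in labelled wildtype in EBSS, and in full medium it was slightly higher in KO libraries with no overlap. The ratio of Eef2 to Eef1a1 averaged 0.240 ± 0.0091 in labelled KO in EBSS, 0.496 ± 0.0219 in labelled wildtype in EBSS, 0.400 ± 0.0296 in KO in full medium and 0.205 ± 0.00187 in wildtype in full medium (SD, n = 3 each). By this ratio labelled wildtype in EBSS and KO in full medium stood on one side, and labelled KO in EBSS and wildtype in full medium on the other, and no pair of groups overlapped.

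The 3 eIF3 subunits split as deposited. Eif3f (ENSMUSG00000031029.6, chr7:108934417-108942951) and Eif3h (ENSMUSG00000022312.11, chr15:51786558-51865523) encode the MPN-domain subunits, which pair with each other in the eIF3 core. Eif3f had 213, 188 and 193 TPM in labelled KO in EBSS, against 284, 285 and 266 TPM in labelled wildtype in EBSS. For full medium the values were 210.4, 179 and 199 TPM in KO libraries, against 189.9, 171 and 181 TPM in wildtype libraries. Eif3h had 1018, 930.1 and 911 TPM in labelled KO in EBSS, against 1245, 1199 and 1117 TPM in labelled wildtype in EBSS. Its values in full medium were 866, 895 and 832 TPM in KO libraries, against 890.3, 860.3 and 889 TPM in wildtype libraries. Both were highest in labelled wildtype in EBSS and overlapped between genotypes in full medium. They were also the closest pair among the 10: after centring each gene on its own mean, their log2(TPM + 1) profiles over the 12 libraries differed by 0.107 (root mean square).

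Eif3e (ENSMUSG00000022336.3, chr15:43250058-43282719) encodes another subunit of the eIF3 core. It had 432, 297 and 289 TPM in labelled KO in EBSS, against 241, 242 and 195 TPM in labelled wildtype in EBSS. Libraries in full medium had 303, 356 and 299.6 TPM for KO, against 395, 370.5 and 398 TPM for wildtype. As deposited, Eif3e was lowest where Eif3f and Eif3h were highest. Its scaled TPM averaged 279 in labelled KO in EBSS, 367 in labelled wildtype in EBSS, 292 in KO in full medium and 311 in wildtype in full medium, with the highest mean in labelled wildtype in EBSS and overlapping libraries. As deposited, replicate 1 of labelled KO in EBSS lay 0.56 above its 2 partners on the log2 scale. In that replicate the other 11 eIF3 genes stood at a median of 0.24 above the partners, with Eif3c at 0.85, and all tested genes at a median of 0.08. The ratio of Eif3e to Eif3h averaged 0.354 ± 0.0617 in labelled KO in EBSS, 0.190 ± 0.0138 in labelled wildtype in EBSS, 0.369 ± 0.0253 in KO in full medium and 0.441 ± 0.00905 in wildtype in full medium (SD, n = 3 each). Labelled wildtype in EBSS was again outside the range of the others.

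Pabpc1 (ENSMUSG00000022283.15, chr15:36595661-36609668) encodes the main cytoplasmic poly(A)-binding protein, which represses translation of its own mRNA. It had 1424, 1368 and 1363 TPM in labelled KO in EBSS, against 1027, 1028 and 1144 TPM in labelled wildtype in EBSS. In KO libraries with full medium it had 1032, 1213 and 1041 TPM, against 1083, 1147 and 1129 TPM in wildtype libraries. As deposited, Pabpc1 was highest in labelled KO in EBSS and overlapped among the other 3 groups. Its scaled TPM averaged 1144 in labelled KO in EBSS, 1724 in labelled wildtype in EBSS, 999.5 in KO in full medium and 898 in wildtype in full medium, so that the group with the highest level depends on the scaling. Its paralog Pabpc4, as deposited, had 142, 119 and 116 TPM in labelled KO in EBSS, 266, 245 and 247 TPM in labelled wildtype in EBSS, 176, 177 and 163 TPM in KO in full medium and 127, 118 and 126 TPM in wildtype in full medium. The ratio of Pabpc1 to Pabpc4 averaged 11.1 ± 0.939, 4.23 ± 0.384, 6.38 ± 0.488 and 9.06 ± 0.584 in those groups (SD, n = 3 each), with no overlap between any of them, and this ratio does not depend on the scaling of libraries.

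Tpt1 (ENSMUSG00000060126.14, chr14:75845093-75848525) had 4879, 4549 and 4571 TPM in labelled KO in EBSS, against 5615, 4550.5 and 4757 TPM in labelled wildtype in EBSS. KO libraries in full medium had 3834, 3879 and 3733 TPM, against 5333, 5254 and 5375 TPM in wildtype libraries. As deposited, Tpt1 resembled Eef1a1 in being lowest in KO in full medium, with no overlap with any other group. Labelled KO in EBSS, at 4549 to 4879 TPM, also lay below wildtype in full medium, at 5254 to 5375 TPM. On scaled values the log2 change of Tpt1 in labelled KO in EBSS over KO in full medium was 0.15 and did not pass (limma, adjusted p = 0.299). In KO in full medium Tpt1 fell less far than Eef1a1, so the ratio of Tpt1 to Eef1a1 was 0.577 ± 0.0217 there and 0.453 ± 0.00758 in wildtype in full medium (SD, n = 3 each).

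**Figure D2:**
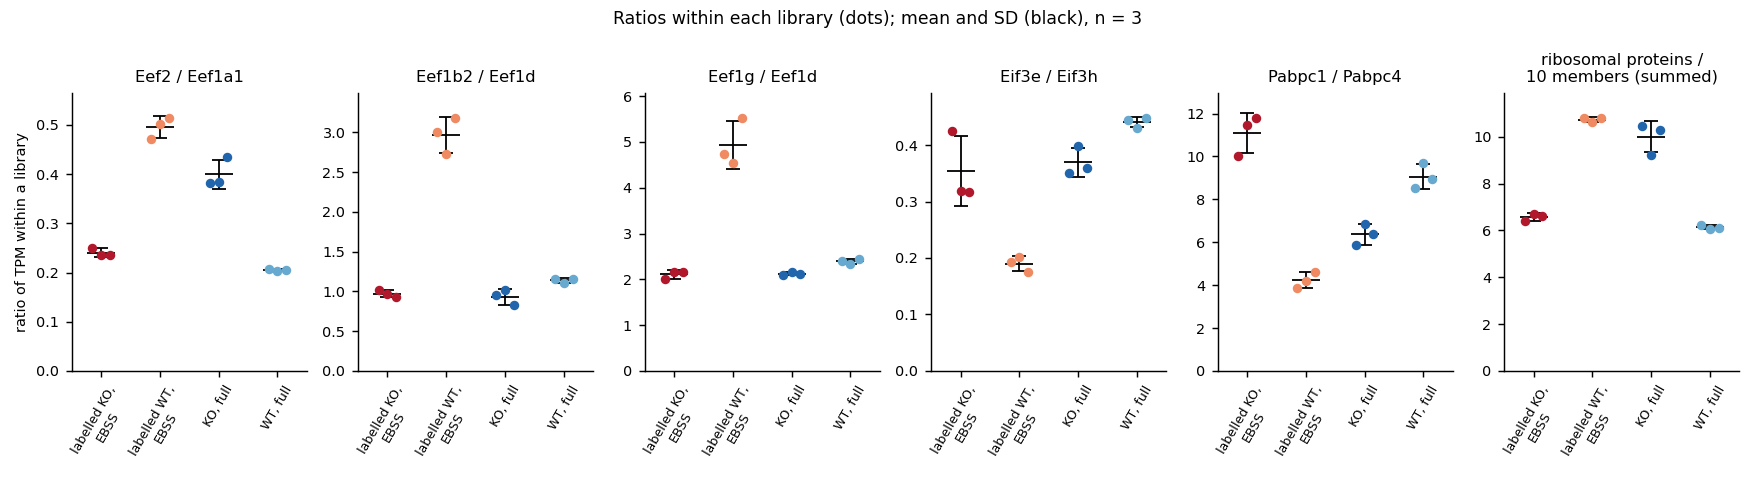
Ratios of TPM within each library (dots; y axes from 0), with the mean and SD of the 3 libraries of a group (black): Eef2 over Eef1a1, Eef1b2 and Eef1g over Eef1d, Eif3e over Eif3h, Pabpc1 over Pabpc4, and summed ribosomal protein mRNAs over the 10 members. Eef2 over Eef1a1 is 0.471 to 0.514 in labelled wildtype in EBSS and 0.382 to 0.434 in KO in full medium, and 0.203 to 0.251 in the other groups.

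Loss of Rbbp5 in fed cells was addressed by KO against wildtype libraries in full medium. Eef1a1 fell to 0.562 times its wildtype level, a log2 change of -0.83 ± 0.08 (SE), and Tpt1 fell to 0.717 times it, a log2 change of -0.48 ± 0.09. Eef1b2 and Eef1g fell by less, with log2 changes of -0.36 and -0.24. In limma's test adjusted by the Benjamini-Hochberg method, the adjusted p was 7.45e-06 for Eef1a1, 0.000625 for Tpt1, 0.00128 for Eef1b2 and 0.00907 for Eef1g. The other 6 members did not pass, with log2 changes from -0.28 for Eif3e to 0.13 for Eef2. That makes 4 of 10 members lower and 0 higher, where 35.8% of all tested genes were called lower and 20.1% higher. The members' median log2 change of -0.15 lay close to the -0.17 of all tested genes.

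On scaled values Eef1a1 and Tpt1 remained lower in KO cells in full medium, with log2 changes of -0.64 and -0.29 (limma, adjusted p = 0.000978 and 0.0467). Eef1b2 and Eef1g did not pass there, at -0.18 and -0.05, and Eef2 and Eif3f were called higher, at 0.32 and 0.30 (limma, adjusted p = 0.0072 and 0.0186). The count was then 2 higher and 2 lower, where 26.7% and 27% of all tested genes were called in those directions. Across the 12 fits that each left out a library, the log2 change of Eef1a1 stayed between -0.86 and -0.78, and that of Tpt1 between -0.49 and -0.46. Eif3e, at -0.28, passed the test (limma, adjusted p = 0.025) once replicate 1 of labelled KO in EBSS, which enters only the shared estimate of spread, was left out. It was also called lower on the 6 libraries of the comparison, with library weights and with the length trend removed (limma, adjusted p = 0.00846, 0.000334 and 0.0427), but not on scaled values.

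Ribosomal protein mRNAs were more often called higher than lower in this comparison, with calls in both directions. Of 77 such genes, 31 were called higher and 16 lower in KO in full medium, with a median log2 change of 0.17, and on scaled values 40 were higher and 7 lower. Among all tested genes 20.1% were called higher and 35.8% lower as deposited, and 26.7% and 27% on scaled values. Their summed share of TPM was 16.3% to 18.3% in KO libraries and 14.6% to 14.9% in wildtype libraries, with no overlap. Rps15, a small-subunit protein gene, was higher at 1.07, and Rpl10, a large-subunit protein gene, was lower at -1.38. Summed ribosomal protein TPM over summed member TPM was 9.23 to 10.5 in KO libraries, against 6.07 to 6.22 in wildtype libraries. Over all tested genes with a known transcript length the change in this comparison went with length at a Spearman correlation of -0.25 across 12413 genes, which are not independent. The longest coding transcripts of the members range over 1169 bases for Tpt1, 1794 for Eef1a1 and 3089 for Eef2. The part of length was not tested beyond the fit with the length trend removed, in which Eef1a1 and Tpt1 kept their direction and their call.

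Counts for the other translation factors stand beside the 20.1% of all tested genes called higher and the 35.8% called lower as deposited. On scaled values these shares were 26.7% and 27%. The eIF4 group had 7 of 11 genes lower and 0 higher in KO in full medium. Eif4g3 (log2 change -1.40), Eif4a2 (-1.33) and Eif4g2 (-0.98) fell most. The eIF2 and eIF2B group, which supplies initiator tRNA, had 3 of 8 genes higher and 0 lower, among them Eif2b2 (0.92) and Eif2b5 (0.70). Of the other 11 eIF3 genes, 1 rose (Eif3i, 0.64) and 4 fell, among them Eif3m (-0.72) and Eif3j1 (-0.57). The 9 other initiation factors had 3 higher and 2 lower, and the 10 tested other elongation and termination factors had 3 higher and 1 lower. Dohh, which completes the hypusine residue of eIF5A, was higher at 1.11. Of 10 genes for PABP partners and TOP regulators, 2 were higher and 4 lower, with Tia1, a stress-granule RNA-binding protein, at -0.99. Of 7 other reported TOP mRNAs, 2 were higher, among them Fau, which encodes a ribosomal protein fused to a ubiquitin-like protein, at 0.55, and 3 lower, with Hnrnpa1 at -1.06. On scaled values the eIF4 group had 1 higher and 6 lower, the eIF2 group 5 higher and 0 lower, the other eIF3 genes 3 higher and 2 lower, the other initiation factors 4 higher and 2 lower, and the other elongation and termination factors 3 higher and 1 lower. The PABP partners and TOP regulators then had 3 higher and 3 lower, and the other reported TOP mRNAs 3 higher and 1 lower.

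Starvation of cells labelled wildtype was addressed by the libraries labelled wildtype in EBSS against wildtype in full medium. Eef2 rose to 2.43 times and Eef1b2 to 2.17 times the full-medium level, and Eef1g, Eif3f and Eif3h also rose. Eif3e fell to 0.582 times and Eef1d to 0.834 times that level. Eef1a1, Tpt1 and Pabpc1, at log2 changes of 0.01, -0.10 and -0.07, did not pass. The rises in log2 were 1.28 for Eef2, 1.12 for Eef1b2, 0.78 for Eef1g, 0.62 for Eif3f and 0.43 for Eif3h, with adjusted p values (limma) from 3.09e-08 to 0.000127. The falls were -0.78 for Eif3e and -0.26 for Eef1d (limma, adjusted p = 0.00043 and 0.00604). That makes 5 of 10 members higher and 2 lower, where 9.25% of all tested genes were called higher and 71.8% lower.

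The typical gene fell in this comparison, so position relative to it matters. The members' median log2 change was 0.22 and that of all tested genes was -0.94, and all 10 members lay above the all-gene median. Eif3e lay nearest to it, 0.15 above, and Eef2 farthest, 2.22 above. On scaled values 9 of 10 members were called higher and 0 lower, where 30.7% and 35.4% of all tested genes were called so. The scaled log2 changes reached 2.29 for Eef2, 2.13 for Eef1b2, 1.79 for Eef1g, 1.63 for Eif3f, 1.44 for Eif3h, 1.02 for Eef1a1, 0.94 for Pabpc1, 0.91 for Tpt1 and 0.75 for Eef1d, while Eif3e, at 0.23, did not pass (limma, adjusted p = 0.174). The direction of Eef1d, Eif3e, Pabpc1 and Tpt1, and under quantile normalization that of Eef1a1 (-0.42), therefore depends on the scaling, and that of Eef2, Eef1b2, Eef1g, Eif3f and Eif3h does not over the scalings tried. Rn45s and Rpph1 moved with this group, at the levels given above.

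**Figure D3:**
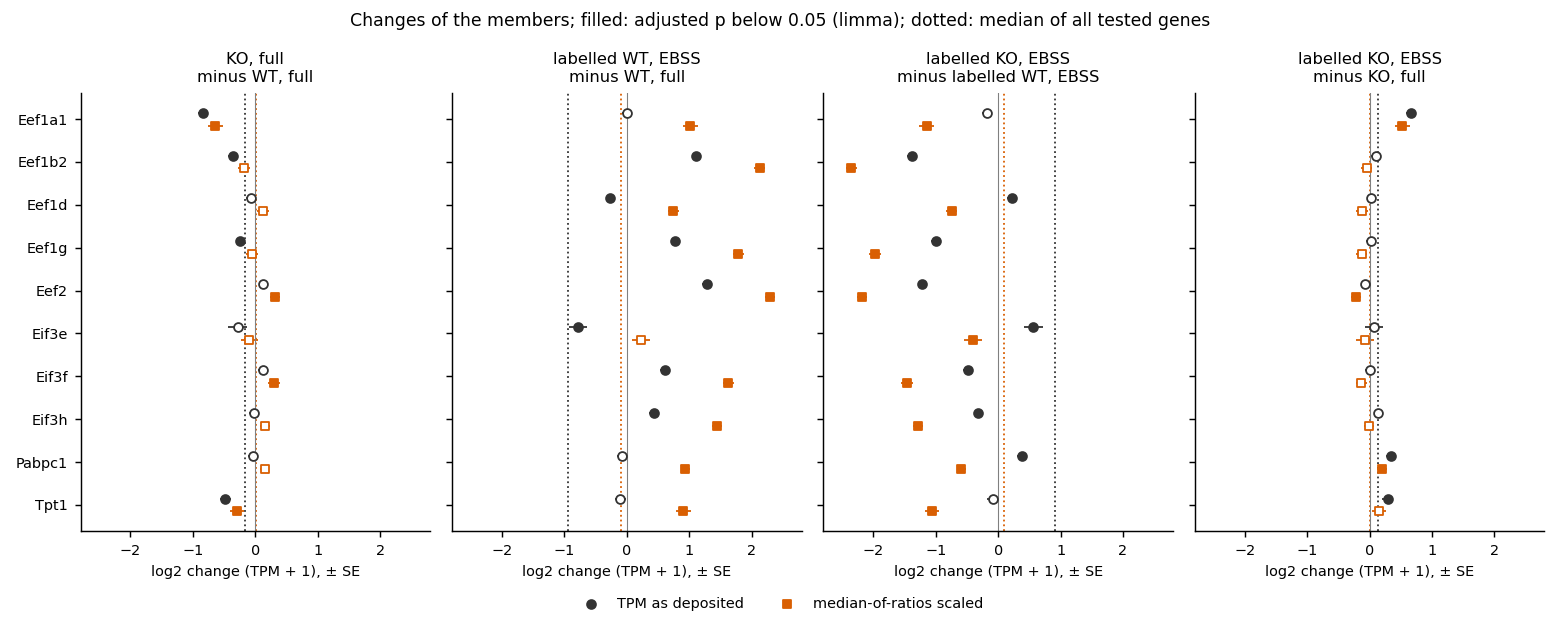
Log2 change (x axis, log2 of TPM + 1) ± SE of each member in 4 comparisons, as deposited (circles) and median-of-ratios scaled (squares), filled where the adjusted p is below 0.05 in limma; dotted lines mark the median of all tested genes on each scale. In labelled wildtype in EBSS over wildtype in full medium all 10 members lie to the right of the deposited all-gene median of -0.94.

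Ribosomal protein mRNAs were higher in labelled wildtype in EBSS in 76 of 77 cases and lower in 0, with a median log2 change of 0.94 as deposited and 1.95 on scaled values, where 77 of 77 were higher. Among all tested genes 9.25% were called higher as deposited and 30.7% on scaled values. The summed ribosomal protein TPM was 10.6 to 10.8 times the summed member TPM in labelled wildtype in EBSS, against 6.07 to 6.22 times in wildtype in full medium. Of the 7 other reported TOP mRNAs, 3 were higher and 0 lower as deposited, among them Fau at 1.41 and Rack1, a ribosome-bound scaffold, at 0.78, and all 7 were higher on scaled values. Vim, one of these 7, is also among the fibroblast markers.

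Counts for the factors outside the list stand beside the 71.8% of all tested genes called lower as deposited and the 35.4% on scaled values. The shares called higher were 9.25% as deposited and 30.7% on scaled values. The other 11 eIF3 genes had 1 higher and 8 lower in labelled wildtype in EBSS as deposited (median log2 change -0.56) and 7 higher and 1 lower on scaled values. The subunit genes Eif3b and Eif3d fell by 1.13 and 1.09 as deposited. The eIF2 and eIF2B group had 1 higher and 6 lower as deposited, with Eif2b3 at -2.59, and 3 higher and 2 lower on scaled values. The eIF4 group had 2 higher and 8 lower as deposited, with Eif4g2 at -1.41 and Eif4h at -1.23, and 5 higher and 2 lower on scaled values. Of the 9 other initiation factors 2 were higher and 5 lower as deposited, and 5 higher and 2 lower on scaled values. Eif1, which guards start-codon choice, rose by 1.33 as deposited. Of the 10 other elongation and termination factors 2 were higher and 7 lower as deposited, with Abce1, the ribosome recycling factor, at -1.62, and 5 higher and 4 lower on scaled values. Of the 10 PABP partners and TOP regulators 3 were higher as deposited, with Pabpc4 at 1.02, and 5 lower, with Tia1 at -2.24 and Larp4, a poly(A)-associated protein, at -1.26. On scaled values 7 of these 10 were higher and 2 lower.

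**Figure D4:**
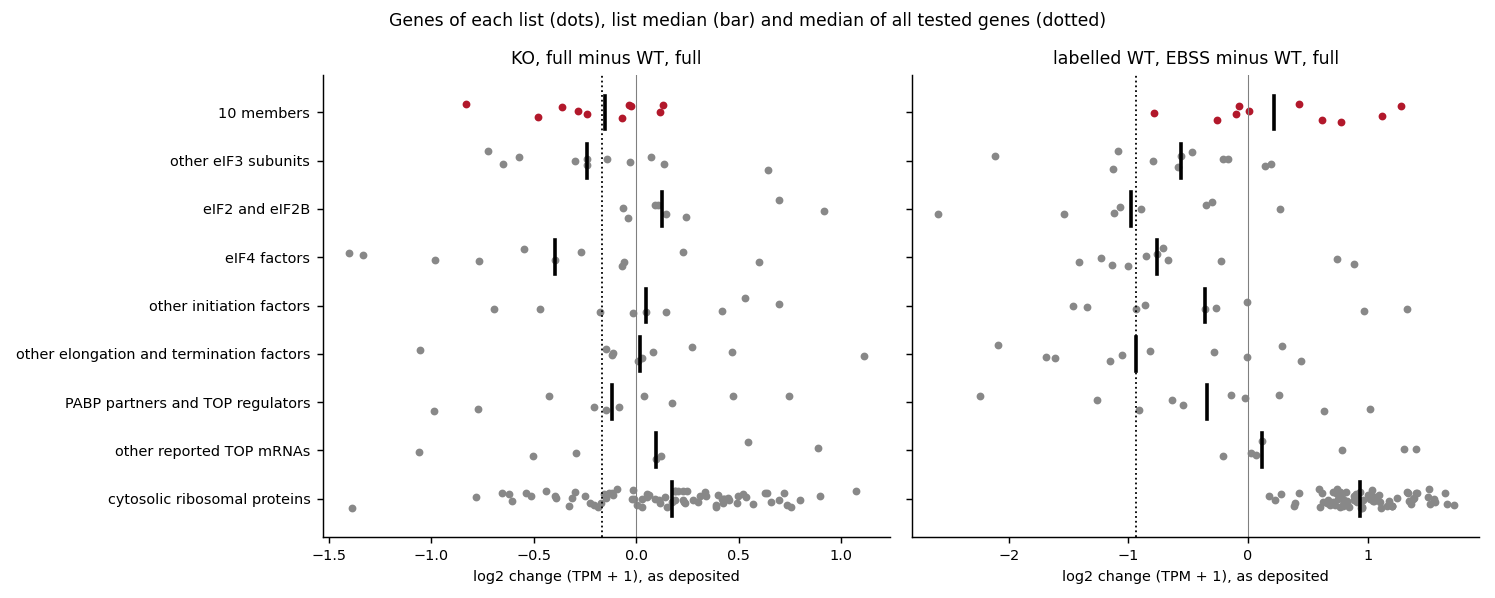
Log2 change as deposited (x axis) of each gene (dots) in the 10 members and 8 other lists of translation genes, with list medians (bars) and the median of all tested genes (dotted), for KO over wildtype in full medium (left) and labelled wildtype in EBSS over wildtype in full medium (right). On the right the ribosomal protein median is 0.94 and the members' median 0.22, against -0.94 for all tested genes.

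Genotype labels within EBSS were compared next, and this comparison shares the libraries labelled wildtype in EBSS with the one before. Libraries labelled KO had lower Eef1b2 (0.383 times the level of those labelled wildtype), Eef2 (0.429 times), Eef1g (0.499 times), Eif3f and Eif3h. Their Eif3e, Pabpc1 and Eef1d were higher, at log2 changes of 0.56, 0.38 and 0.22. Eef1a1 and Tpt1, at -0.17 and -0.09, did not pass (limma, adjusted p = 0.0644 and 0.36). That makes 3 of 10 members higher and 5 lower, where 71.9% of all tested genes were called higher and 8.58% lower. The median of all tested genes was 0.91 as deposited, 0 of 10 members lay above it, and on scaled values all 10 members were called lower and 0 higher, where 29.2% of all tested genes were called lower and 34.6% higher. Without replicate 1 of labelled KO in EBSS the change of Eif3e was 0.38 and still passed (limma, adjusted p = 0.00739). Without replicate 3 of labelled wildtype in EBSS, which lists 1122 tested genes at 0 against 12 to 229 in the other libraries, Eef1d at 0.14 no longer passed (limma, adjusted p = 0.052) and Eef1a1 at -0.23 did (limma, adjusted p = 0.0187). Ribosomal protein mRNAs were lower in 76 of 77 cases and higher in 0, and the other 11 eIF3 genes were higher in 8 cases and lower in 0, though 3 higher and 7 lower on scaled values.

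Between media, 3 members differed in the libraries labelled KO. In labelled KO in EBSS over KO in full medium, Eef1a1 rose with a log2 change of 0.66 ± 0.08 (SE), Pabpc1 with 0.34 ± 0.08 and Tpt1 with 0.29 ± 0.09 (limma, adjusted p = 4.05e-05, 0.00352 and 0.0137). The other 7 members lay between -0.07 and 0.14 and did not pass. That makes 3 of 10 members higher and 0 lower, where 33.3% of all tested genes were called higher and 20.9% lower. On scaled values Eef1a1 and Pabpc1 were still higher, at 0.52 and 0.20, Tpt1 at 0.15 did not pass, and Eef2 was called lower at -0.21 (limma, adjusted p = 0.0476), where 26.2% of all tested genes were called higher and 25.8% lower.

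Since Rbbp5 was at the wildtype level in the libraries labelled KO in EBSS, they were also set beside wildtype in full medium, a pair that differs in both label and medium. No member passed, with log2 changes from -0.27 for Eef1b2 to 0.31 for Pabpc1. In limma, 0 of 10 members were called in either direction, where 0.134% of all tested genes were called, and 4 of 10 members and 1382 of 12653 genes had an unadjusted p below 0.05. On scaled values 0 of 10 members were called as well, where 0.111% of all tested genes were. With library weights, 1 member (Pabpc1) was called higher and 5 were called lower, where 11.8% of all tested genes were called higher and 30.3% lower. A p that misses the threshold does not show that the groups were alike: Pabpc1 was above all wildtype full-medium libraries in each of the 3 libraries, and Eef1b2 was below them in each.

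The remaining pair, labelled wildtype in EBSS against KO in full medium, had 7 of 10 members higher and 2 lower, where 11.6% of all tested genes were called higher and 63.5% lower. Eef1b2 led with a log2 change of 1.48, followed by Eef2 at 1.15, Eef1g at 1.02 and Eef1a1 at 0.84, and Eif3e at -0.50 and Eef1d at -0.19 were lower. On scaled values 9 of 10 members were higher and 0 lower, where 30% and 33.2% of all tested genes were called so. The call of Eef1d rested on single libraries: its adjusted p in limma was 0.111 without replicate 3 of labelled wildtype in EBSS, 0.0718 without replicate 1 of KO in full medium and 0.0945 without replicate 3 of it.

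The interaction, the difference between the KO label's change in EBSS and in full medium, was called for every member in limma, with 5 of 10 members higher and 5 lower, where 64.2% of all tested genes were called higher and 12.5% lower. On scaled values 0 members were higher and 9 lower, where 34% of all tested genes were called higher and 32.8% lower.

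Within the list the profile nearest to the members' mean was that of Eif3h, at a root mean square difference of 0.073 on the log2 scale over the 12 libraries. Eif3f came next at 0.147, and the farthest was Eif3e at 0.46. The 5 genes outside the list whose centred profiles came closest to the members' mean were Siah1b at 0.069, Zbtb48 at 0.084, Tmc6 at 0.092, Chtop at 0.098 and Trim41 at 0.099, where the median gene differed by 0.68. Siah1b was thus nearer to that mean than any member, and all 5 were nearer than every member but Eif3h. On scaled values the closest were Siah1b, Zbtb48, Cnnm1, Tmc6 and Trim41. All profiles share the same 12 libraries and their composition.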

How the data were processed

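Poly(A) RNA from 12 MEF libraries was prepared with an Illumina TruSeq kit, per the labels. The authors deposited TPM per gene symbol, made with Salmon and mm10 per the submitters' processing notes; the version of Salmon is not given in the sources used here. TPM keeps no depth, so depth is unknown and no counting interval is given.

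Values were analysed as log2(TPM + 1) for 12653 of 25117 symbols, those with at least 1 TPM in at least 3 libraries; folds on this scale understate the change of low genes. A model with 4 group means over all 12 libraries was fitted with limma 3.58.1 (R 4.3.3) with a variance trend, and 7 comparisons were taken from it. P-values are two-sided, adjusted over all tested genes by the Benjamini-Hochberg method, with a threshold of 0.05. The fit was tested on simulated data. Median-of-ratios factors came from 11371 genes. Gene models are from GENCODE vM21 on GRCm38, which may differ from the annotation behind the table. The 10 members and the other lists were chosen with earlier results of these data known. The members were all named; from other lists at most 3 called genes with the largest changes were eligible, with a mean of at least 5 TPM in the higher group. Eif3c, Col3a1 and, as a fibroblast marker, Vim were named after their values were seen. No rows of member pseudogenes were found (0). Alternatives numbered 26. Python 3.11.15 and matplotlib 3.10.9 drew the figures. Some sequences and genes that these rules cover are not reported here.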

Additional observations from a re-analysis of the deposited data

Results flagged for a closer look

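The effect of the KO label differed between media for every member, by the interaction in limma (labelled KO minus labelled wildtype in EBSS, less KO minus wildtype in full medium). These values rest on EBSS labels that the level of Rbbp5 goes against as deposited. Of all tested genes 64.2% were called higher and 12.5% lower in this interaction, and their median was 1.06, so 5 members higher and 5 lower all lie below that median. Positive log2 differences were 0.85 for Eif3e, 0.66 for Eef1a1, 0.41 for Pabpc1, 0.39 for Tpt1 and 0.29 for Eef1d. Negative ones were -1.35 for Eef2, -1.02 for Eef1b2, -0.76 for Eef1g, -0.61 for Eif3f and -0.29 for Eif3h. The adjusted p values in limma ran from 2.24e-07 for Eef2 to 0.024 for Eef1d, and Eef1d lost its call in 4 of the fits that left out a library. On median-of-ratios scaled values all 10 differences were negative, from -2.50 for Eef2 to -0.30 for Eif3e, and 9 were called lower, where 32.8% of all tested genes were.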

How the results depend on the processing

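Of 1810 member values recomputed under 26 alternatives, 1671 kept their side of the threshold without turning round, 36 lost a call and 44 gained one. The other 59 turned round, changing sign with a call before or after. The 1671 include 44 values that changed sign while uncalled both times. All 59 that turned round arose under another scaling or with the length trend removed. Comparisons are written first group over second. As deposited, KO over wildtype in full medium had 0 members higher and 4 lower, labelled KO over labelled wildtype in EBSS 3 and 5, EBSS over full medium 5 and 2 in labelled wildtype and 3 and 0 in labelled KO, the interaction 5 and 5, and labelled wildtype in EBSS over KO in full medium 7 and 2.

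With median-of-ratios scaling these counts were 2 and 2, 0 and 10, 9 and 0, 2 and 1, 0 and 9, and 9 and 0. With the length trend removed, which also centres each library, KO over wildtype in full medium had 2 higher, labelled KO over labelled wildtype in EBSS 0 and 9, EBSS over full medium 9 and 0 in labelled wildtype and 1 lower in labelled KO, the interaction 0 higher, and labelled wildtype in EBSS over KO in full medium 0 lower. With ribosomal protein genes left out, labelled KO over labelled wildtype in EBSS had 0 and 8, labelled wildtype in EBSS over full medium 8 and 1, the interaction 0 higher, and labelled wildtype in EBSS over KO in full medium 0 lower. Quantile normalization gave 3 higher in the interaction and 0 lower in labelled wildtype in EBSS over KO in full medium. Library weights gave 1 higher in KO over wildtype in full medium, and 1 higher and 5 lower in labelled KO in EBSS over wildtype in full medium, where the fit as deposited had 0 and 0. Fits on 6 libraries gave 1 higher (Eef2) in KO over wildtype in full medium. For labelled wildtype in EBSS over KO in full medium, 1 member was lower on 6 libraries, with library weights and with no variance trend. A count left out for a setting equalled the one as deposited or lay within 1.5-fold of it. Within that limit, removing the length trend added Eif3e (-0.35) and Eif3h (-0.16) to the members lower in KO over wildtype in full medium (limma, adjusted p = 0.0427 and 0.048). It also turned Eef1d and Pabpc1 to called lower in the interaction (limma, adjusted p = 6.35e-05 and 0.000158).

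Values that turned round were as follows. In labelled KO over labelled wildtype in EBSS, Eef1d was -0.75 with median-of-ratios scaling, -0.72 with the length trend removed, -0.20 without ribosomal protein genes and -0.20 with quantile normalization; Eif3e was -0.40 and -0.16 under the first and second of these; Pabpc1 was -0.59, -0.56 and -0.042 under the first 3; and Eef1a1 and Tpt1 were 0.42 and 0.76 with quantile normalization. In labelled wildtype in EBSS over full medium, the same order gave Eef1d 0.75, 0.71, 0.17 and 0.16, Tpt1 0.91, 0.49 and 0.32, and Pabpc1 0.94, 0.90 and 0.36, with Eif3e at 0.23 under median-of-ratios scaling and Eef1a1 at -0.42 under quantile normalization. In the interaction, Eef1d was -0.86, -0.83, -0.18 and -0.082, Tpt1 -0.76, -0.035 and -0.076, Pabpc1 -0.74, -0.70 and -0.056, Eef1a1 -0.50 and -0.14, and Eif3e -0.30. In labelled wildtype in EBSS over KO in full medium, Eef1d was 0.63, 0.59, 0.19 and 0.29, Pabpc1 0.79, 0.75 and 0.34, Eif3e 0.32 and 0.28, and Tpt1 -0.19 with quantile normalization. The cause was not tested.

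The counts stand against these shares of all tested genes. With the length trend removed, 27.0% to 33.2% were called higher and 27.2% to 34.2% lower over the 6 comparisons other than labelled KO in EBSS over wildtype in full medium. With ribosomal protein genes left out, 57.4% were higher and 14.4% lower in labelled KO over labelled wildtype in EBSS, 15.1% and 58.0% in labelled wildtype in EBSS over full medium, 52.5% higher in the interaction and 50.2% lower in labelled wildtype in EBSS over KO in full medium. Quantile normalization gave 32.2% higher in the interaction and 33.9% lower in the last pair. Library weights gave 32.6% higher in KO over wildtype in full medium, and fits on 6 libraries 29.2%. In the last pair 59.7% were lower on 6 libraries, 70.3% with library weights and 63.6% with no variance trend.

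Samples with the same replicate number did not deviate together (18 pairs, r from -0.0728 to 0.0793, 0 over 0.1). A lack of shared deviation cannot show whether libraries of the same number were cultured or prepared together. The replicate block left 1 member lower in labelled wildtype in EBSS over KO in full medium, with Eef1d at an adjusted p of 0.0502 in limma, and changed no other count. Together with the length trend removed, the replicate block gave 2 higher in KO over wildtype in full medium, 0 and 9 in labelled KO over labelled wildtype in EBSS, 9 and 0 and 1 lower for EBSS over full medium in labelled wildtype and labelled KO, 0 higher in the interaction and 0 lower in the last pair. The log2 values that turned round were those with the length trend removed alone: -0.72, -0.16 and -0.56 for Eef1d, Eif3e and Pabpc1, then 0.71, 0.49 and 0.90 for Eef1d, Tpt1 and Pabpc1, then -0.14, -0.83, -0.035 and -0.70 for Eef1a1, Eef1d, Tpt1 and Pabpc1, and 0.59, 0.28 and 0.75 for Eef1d, Eif3e and Pabpc1.

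Leaving out a library in turn gave 4 to 5 members lower and 0 higher in KO over wildtype in full medium, 2 to 3 higher and 5 to 6 lower in labelled KO over labelled wildtype in EBSS, 5 higher and 2 to 3 lower in labelled wildtype in EBSS over full medium, and 4 to 5 higher and 5 lower in the interaction. It gave 7 higher and 1 to 2 lower in labelled wildtype in EBSS over KO in full medium, 3 higher and 0 lower for EBSS in labelled KO, and 0 in either direction for labelled KO in EBSS over wildtype in full medium. Tpt1 was called lower, at -0.19, in labelled wildtype in EBSS over full medium without replicate 1 of the EBSS libraries. Eef1d lost its interaction call without replicate 3 of labelled KO in EBSS, replicate 2 of KO in full medium, or replicate 1 or 2 of wildtype in full medium.

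With 3 libraries a group, unknown depth and EBSS labels in doubt, small changes of single members and shifts of composition cannot be told apart.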
